A study of Gallus gallus with 24 samples.

Results

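Phospholipid flippases were examined in chicken liver and heart after feeding with salinomycin (Sal), a polyether ionophore used in poultry feed against coccidia. The genes described are the 9 named *ATP8A1*, *ATP8A2*, *ATP8B1*, *ATP9A*, *ATP9B*, *ATP10D*, *ATP11A*, *ATP11B* and *TMEM30A*, and all 9 were found by symbol among the 15051 genes of the count table. They were put together because *ATP8A1* was among the genes with the largest increase in the livers of Sal-exposed birds. That liver difference, and any comparison that contains it, is therefore given for these genes as a description without a test. The heart values were not the reason for the choice and were tested, though earlier results of these data were known when the members were chosen. The control livers that *ATP8A1* was chosen against also stand in the comparison of control liver with control heart, so there *ATP8A1* is again described without a test, and the other members were tested.

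RNA-seq libraries came from 6 livers of Sal-exposed birds, 6 livers of control birds, 6 hearts of Sal-exposed birds and 6 hearts of control birds, 24 in all. The birds were female broiler chickens on litter, fed without Sal until the experimental period of weeks 4 to 5. The Sal-exposed group then received feed with Sal at 10.5 mg/kg, which came to about 0.9 mg per kg of bird a day, and the control group received feed without Sal. The labels name no other agent and no genetic change, and the tissues were whole pieces with all their cell types. All tissues were taken in week 5, on the last day of the experiment. By the study's methods, heart and liver were dissected from 6 euthanised birds of each treatment group, so both tissues shared birds. The labels do not say whether a heart and a liver with the same number came from 1 bird, and comparisons across tissues treated the libraries as independent.

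P4-ATPases, or flippases, use ATP to move phospholipids from the outer or luminal leaflet of a membrane to the cytosolic leaflet. Their work keeps phosphatidylserine and phosphatidylethanolamine on the cytosolic side, where both lipids take part in vesicle budding and endosome recycling and where phosphatidylserine is hidden from the receptors of phagocytes. Scramblases undo this order, and outward pumps of the ABC family carry lipids in the other direction. Most flippases leave the endoplasmic reticulum only with a subunit of the CDC50 family, of which TMEM30A is the widespread form. In mammalian liver, ATP8B1 protects the canalicular membrane of hepatocytes against bile salts, and its loss causes cholestasis.

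The libraries held 31371000 to 44528000 counts. Mitochondrially encoded genes took 5.21 to 30.4% of counts in livers but 38.6 to 79.6% in hearts, and the highest shares were those of Sal-exposed hearts 1 (72.0%) and 4 (79.6%). Control livers 1 and 6 had the fewest genes detected, 13311 and 12355. Some results, not all, are therefore also given without these control livers or without those Sal-exposed hearts. The tissue labels fitted the markers: the 6 hepatocyte markers were all higher in control liver than in control heart, and the 6 cardiomyocyte markers were all lower. Levels are given as CPM (counts scaled to library size) after TMM scaling over the 24 libraries, and they compare samples for 1 gene, not genes with each other, since no transcript lengths were used.

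Among the 9 genes the largest difference in liver was that of *ATP8A1*, a phosphatidylserine flippase of recycling endosomes and the Golgi. *ATP8A1* (ENSGALG00010014393) lies on chromosome 4, from 67663926 to 67754574 in the GRCg7b assembly. In Sal-exposed livers it was at 3.32, 1.11, 5.93, 3.78, 6.29 and 8.32 CPM in birds 1 to 6, against 0, 1.02, 0.36, 0.56, 0.30 and 0.44 CPM in control livers 1 to 6. The lowest Sal-exposed liver, bird 2, lay just above the highest control liver, also numbered 2, so the groups did not overlap but nearly met.

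These levels rested on 45 to 369 counts per library in Sal-exposed livers and 0 to 39 counts in control livers. The 0 in control liver 1 allows up to 3 counts, or 0.0974 CPM, by counting error alone. The group means were 4.79 ± 2.56 CPM in Sal-exposed livers and 0.445 ± 0.337 CPM in control livers (SD, n = 6 each), a ratio of 10.8. The fitted log2FC was 3.36 (SE 0.67), and 3.06 without control livers 1 and 6. In whole tissue, fewer cells of a type and less RNA per cell cannot be told apart, for this gene or for any other below.

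Among the other phosphatidylserine and phosphatidylethanolamine flippases, *ATP11A* came next in liver. Its product works at the plasma membrane, where caspase cleavage of it in dying mammalian cells helps to expose phosphatidylserine. *ATP11A* was at 0.737 CPM in the lowest, 2.77 CPM at the median and 3.34 CPM in the highest Sal-exposed liver, against 0, 0.669 and 1.19 CPM in control livers. The lowest Sal-exposed liver was again bird 2, and it fell among the control livers, while the other 5 lay above all control livers. The log2FC was 1.82 (SE 0.67) between group means of 2.36 ± 1.02 CPM in Sal-exposed livers and 0.638 ± 0.390 CPM in control livers (SD, n = 6 each). It was 1.55 without control liver 1, where the 0 stood, and 2.13 without control liver 6.

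*ATP11B*, an endosomal and Golgi relative of *ATP11A*, was at 26.1 to 40.7 CPM (median 34.7) in Sal-exposed livers and at 23 to 31.5 CPM (median 26.7) in control livers. The groups overlapped, and the log2FC was 0.27 (SE 0.15). *ATP8A2*, in mammals a flippase of neurons and photoreceptors, was hardly detected. It had 0 to 6 counts in each Sal-exposed liver and 0 to 16 in each control liver, and fell below the count filter of every test.

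*ATP9A* and *ATP9B* encode flippases of endosomes and the trans-Golgi network that need no CDC50 subunit. *ATP9A* was at 2.09 to 6.72 CPM (median 5.41) in Sal-exposed livers and at 0 to 3.15 CPM (median 2.47) in control livers. Sal-exposed liver 2 was the only 1 of its group within the control range, and the 0 stood in control liver 6, where it allows up to 0.102 CPM. The log2FC was 1.19 (SE 0.62), and 0.93 without control liver 6. *ATP9B* was at 9.31 to 15 CPM (median 11.3) in Sal-exposed livers and at 6.33 to 11.7 CPM (median 7.57) in control livers, with a log2FC of 0.47 (SE 0.20). Only control liver 6 of the control group reached the Sal-exposed range.

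*TMEM30A*, the shared subunit, was at 71.2, 51.4, 73.5, 52.5, 90.1 and 94.9 CPM in Sal-exposed livers 1 to 6, against 36, 60.7, 48.8, 42.0, 39.3 and 40.0 CPM in control livers 1 to 6. Control liver 2 alone lay within the Sal-exposed range, above Sal-exposed livers 2 and 4. The means were 72.3 ± 18.2 CPM in Sal-exposed livers and 44.5 ± 9.01 CPM in control livers (SD, n = 6 each), with a log2FC of 0.64 (SE 0.18). Per gene its difference was smaller than that of *ATP8A1*, *ATP11A* or *ATP9A* on the log2 scale, but its standard error was also smaller.

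The 2 remaining members have other lipids or another site. *ATP10D*, whose human form moves glucosylceramide, was at 5.92 to 17.2 CPM (median 10.9) in Sal-exposed livers and at 4.90 to 10.7 CPM (median 7.31) in control livers, a log2FC of 0.62 (SE 0.26) between overlapping groups. The canalicular *ATP8B1* was at 0.225 to 0.650 CPM (median 0.341) in Sal-exposed livers and at 0.065 to 1.20 CPM (median 0.135) in control livers. Its 8 to 33 counts in Sal-exposed livers and 2 to 46 in control livers gave a log2FC of 0.21 with a standard error of 0.75. The 46 counts stood in control liver 2. The log2FC was 1.42 without that liver and -0.001 without Sal-exposed liver 3, so the direction of *ATP8B1* in liver was not resolved.

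**Figure D1:**
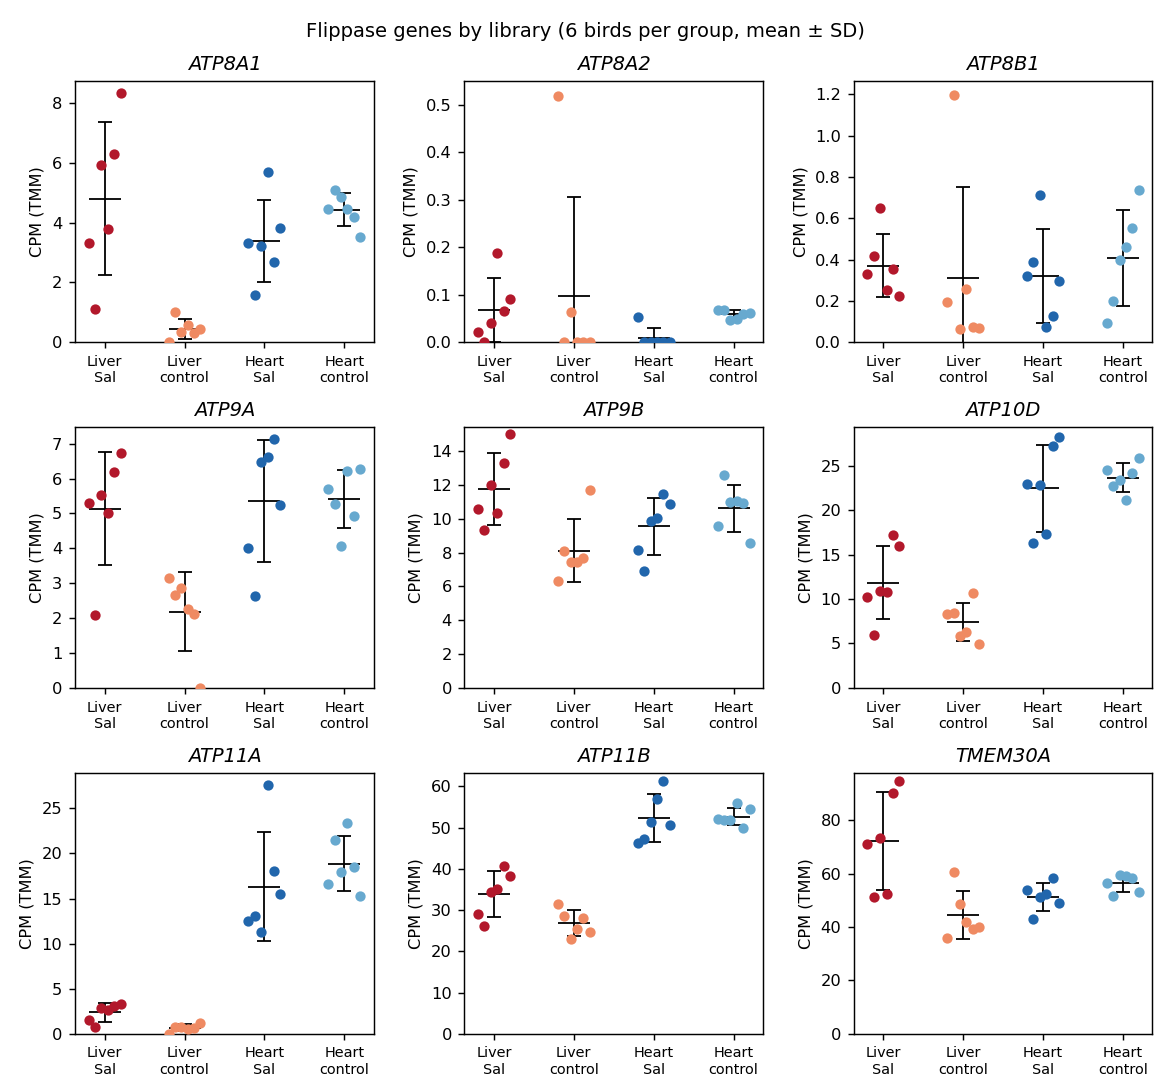
Level of each of the 9 flippase genes in every library, in TMM-scaled CPM (each panel with its own vertical axis). Columns are Sal-exposed liver, control liver, Sal-exposed heart and control heart, points are birds, and bars give the mean ± SD of 6 birds. For *ATP8A1*, the Sal-exposed livers run from 1.11 to 8.32 CPM, above all control livers (0 to 1.02 CPM).

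Across the family in liver, all 8 genes that passed the count filter had a positive log2FC, with a median of 0.63 against -0.01 over the 13587 genes tested, though *ATP8B1* and *ATP11B* turned negative under other settings. With the call rule of an adjusted p of at most 0.05 and a log2FC of at least 1 in size, 1 of the 8 was called, *ATP8A1*, where 7.01% of all genes tested were called. Without control livers 1 and 6, 3 of the 8 were called. By adjusted p alone 2 were called, *ATP8A1* and *TMEM30A*, where the background was 15.4%. *TMEM30A* no longer passed without Sal-exposed liver 1, 3, 5 or 6 or control liver 1, 4 or 5 (edgeR adjusted p up to 0.0745), nor without control livers 1 and 6 together (0.0914). The number past the adjusted p ran from 1, without Sal-exposed liver 1, 3, 5 or 6 or control liver 4 or 5, to 4 without Sal-exposed liver 2 and 5 without control liver 6. The groups did not overlap for 1 of the 8, against 5.7% of all genes. The shares of all genes belong to the main fit, not to the fits that left out livers. In the refits without 1 liver, 504 to 1296 genes met the call rule. Because *ATP8A1* was chosen on this contrast, nothing is read from these counts.

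Sal-exposed liver 2 was the lowest of its group for 7 of the 8 genes, the exception being *ATP8B1*, and Sal-exposed liver 6 was the highest for 5. Over all genes, liver 2 was lowest for 30.4% and liver 6 highest for 15.6%. Both shares of the flippase genes describe the same 6 birds and carry no test.

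Several properties of the liver libraries moved with the groups, and their part in the flippase values was not tested. The number of genes detected was 14553 ± 132 in Sal-exposed livers and 13866 ± 863 in control livers (SD, n = 6 each, two-sided exact permutation p = 0.0238). Most members lie in long genes: the genomic spans of 7 of the 8 tested members stood between percentiles 71.8 and 96.7 of all genes, with *ATP8A1* at 90.6 kb and percentile 91.1. The exception was *TMEM30A*, at 15.7 kb and percentile 50.7. The median deviation of long minus short genes, in log2 CPM, was 0.27 ± 0.45 in Sal-exposed livers and -0.24 ± 0.10 in control livers (SD, n = 6 each, two-sided exact permutation p = 0.026), and it was lowest, -0.49, in Sal-exposed liver 2. With this trend on genomic span taken out of each library, the log2FC of *ATP8A1* was 2.96, that of *ATP11B* was -0.08, and the other 6 stayed positive. With 4 surrogate variables in the fit the log2FC of *ATP8A1* was 1.72 and 0 of the 8 members met the call rule by edgeR, with 2 at an unadjusted p under 0.05. No gene named below as called in liver passed in that fit.

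The summed markers of several cell types also differed in liver. Hepatocyte markers summed to 115290 ± 23678 CPM in Sal-exposed livers and 182530 ± 47298 CPM in control livers (exact permutation p = 0.00866), and 1 of the 6 was lower by adjusted p. Most of each sum was *ALB*, with means of 77712 CPM in Sal-exposed and 126090 CPM in control livers. Lower sums in Sal-exposed livers were also found for cardiomyocyte markers (7.48 to 42.0 CPM, against 47.4 to 235 CPM in control livers, exact permutation p = 0.00216, 1 of 5 tested lower by adjusted p) and erythrocyte markers (62.9 to 230 CPM, against 171 to 654 CPM in control livers, exact permutation p = 0.0216, 2 of 3 lower). The same held for thrombocyte markers (16.2 to 28.8 CPM, against 23.6 to 45.3 CPM in control livers, exact permutation p = 0.00866, 2 of 4 lower) and for bile duct and stellate cell markers (63.9 to 93.8 CPM, against 106 to 152 CPM in control livers, exact permutation p = 0.00216, 3 of 5 lower). In each of these 2 lists 1 gene had a positive log2FC, *THBS1* (0.54, edgeR adjusted p = 0.438) and the stellate cell marker *PDGFRB* (1.38, SE 0.62, edgeR adjusted p = 0.142). Most of the cardiomyocyte sum in liver was *TNNC1*, with means of 16.8 CPM in Sal-exposed and 99.6 CPM in control livers. Leukocyte markers summed to 1754 to 2693 CPM in Sal-exposed livers and 1860 to 3036 CPM in control livers (exact permutation p = 0.385), and most of each sum was *CD74*, at 1587 ± 211 CPM in Sal-exposed livers and 1916 ± 356 CPM in control livers. Of the 5 leukocyte markers 1 was higher by adjusted p, the pan-leukocyte gene *PTPRC*, at 77.7 ± 25.9 CPM in Sal-exposed livers and 41.9 ± 12.4 CPM in control livers (log2FC 0.83, SE 0.24, edgeR adjusted p = 0.031), and 2 of 5 passed by DESeq2. *PTPRC* no longer passed without Sal-exposed liver 1, 4 or 6 or control liver 3, 4, 5 or 6 (edgeR adjusted p up to 0.0801), nor with offsets on genomic span (0.13). The T cell gene *CD3E* had a log2FC of 0.65 (SE 0.21, edgeR adjusted p = 0.0507). Endothelial and neural marker sums gave exact permutation p-values of 0.0996 and 0.439 in liver. Past the adjusted p were 0 of 5 and 0 of 1 tested by edgeR and 0 and 0 by DESeq2, with 1 and 0 at an unadjusted p under 0.05. Of the neural markers below the liver count filter, *SNAP25* had 0 counts in every Sal-exposed liver and at most 1 in a control liver, which gives no direction. *SYT1* averaged 0.174 CPM in Sal-exposed livers, with up to 13 counts, and 0.293 CPM in control livers, with up to 16 counts. *ELAVL4* averaged 0.618 CPM in Sal-exposed livers, with up to 53 counts, and 0.00538 CPM in control livers, with at most 1 count.

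In heart, no flippase gene was called. The heart of Sal-exposed birds had 0 of 8 tested members past the call rule, by edgeR and by DESeq2. By edgeR 0.111% of the 13526 genes tested were called (0.185% by adjusted p alone). At an unadjusted p under 0.05 the main edgeR fit had 0 of 8, a level that 17.2% of all genes (2332) reached. That level was reached by 1 member under DESeq2, without the count filter or with surrogate variables, where 2700, 2514 and 3606 genes reached it. Without Sal-exposed heart 4, alone or with heart 1, 2 members reached it by edgeR, with 2676 and 2689 genes. All 8 log2FC were below 0, with a median of -0.14 against -0.02 over all genes, but those of *ATP9A*, *ATP10D* and *ATP11B* changed sign under another tool or scaling or when single hearts were left out. The mitochondrial share was 55.4 ± 16.3% in Sal-exposed hearts and 41.6 ± 3.51% in control hearts (SD, n = 6 each, exact permutation p = 0.0368). Apart from hearts 1 and 4, Sal-exposed hearts had 40.7 to 49.5%, and control hearts had 38.6 to 47.9%. The share was not tested without those 2 hearts. Cardiomyocyte markers summed to 25649 ± 2260 CPM in Sal-exposed hearts and 19893 ± 2011 CPM in control hearts (SD, n = 6 each, exact permutation p = 0.00433, with 0 of 6 past the adjusted p by edgeR, 2 by DESeq2 and 3 at an unadjusted p under 0.05). Of these 6 markers 4 had a positive log2FC, and *MYH7* (-1.12) and *RYR2* (-0.37) had a negative one. The largest part of each sum was *ACTC1*, with means of 13039 CPM in Sal-exposed and 9908 CPM in control hearts. The other marker sums in heart gave exact permutation p-values of 0.197 to 0.812. Of 5 tested hepatocyte markers 3 had a positive log2FC, and 1 passed by edgeR and 3 by DESeq2. The 1 was *ALB*, at 30.5 ± 19.5 CPM in Sal-exposed and 6.21 ± 1.55 CPM in control hearts (log2FC 2.30, edgeR adjusted p = 0.0292). The part of these differences in the heart values was not tested.

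*ATP8A1* was at 3.33, 1.59, 3.21, 5.69, 2.67 and 3.81 CPM in Sal-exposed hearts 1 to 6, against 4.45, 5.11, 4.87, 4.45, 4.20 and 3.52 CPM in control hearts 1 to 6. The Sal-exposed hearts spread on both sides of the control hearts, with 4 of them below and 1 above the whole control range. The log2FC was -0.40 (SE 0.24, adjusted p = 0.428 by edgeR's quasi-likelihood test). Without Sal-exposed hearts 1 and 4, whose mitochondrial shares were highest, it was -0.64 (edgeR adjusted p = 0.17).

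The other flippase genes had log2FC of smaller size in heart. *ATP11A* was at 11.3 to 27.6 CPM (median 14.3) in Sal-exposed hearts and at 15.2 to 23.3 CPM (median 18.2) in control hearts, with a log2FC of -0.20 (SE 0.20, edgeR adjusted p = 0.646). *TMEM30A* was at 43.1 to 58.5 CPM (median 51.8) in Sal-exposed hearts and at 51.6 to 59.4 CPM (median 57.5) in control hearts, a log2FC of -0.13 (SE 0.09, edgeR adjusted p = 0.517). For *ATP9A*, *ATP9B*, *ATP10D* and *ATP11B* the log2FC lay between -0.15 and -0.00 with standard errors of 0.09 to 0.22, and for *ATP8B1*, with 1 to 36 counts per heart, it was -0.29 (SE 0.53). *ATP8A2* had 0 or 1 count in Sal-exposed hearts and 2 or 3 in control hearts.

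The spread between birds also differed between the groups. The coefficient of variation was larger in Sal-exposed than in control hearts for 8 of 8 members, for example 40.3% in Sal-exposed and 12.5% in control hearts for *ATP8A1*. The same was true of 81.6% of 12565 genes, so the flippase genes followed the libraries at large in this. In liver the coefficient was larger in Sal-exposed birds for 3 of 8 members and for 35.1% of all genes.

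**Figure D2:**
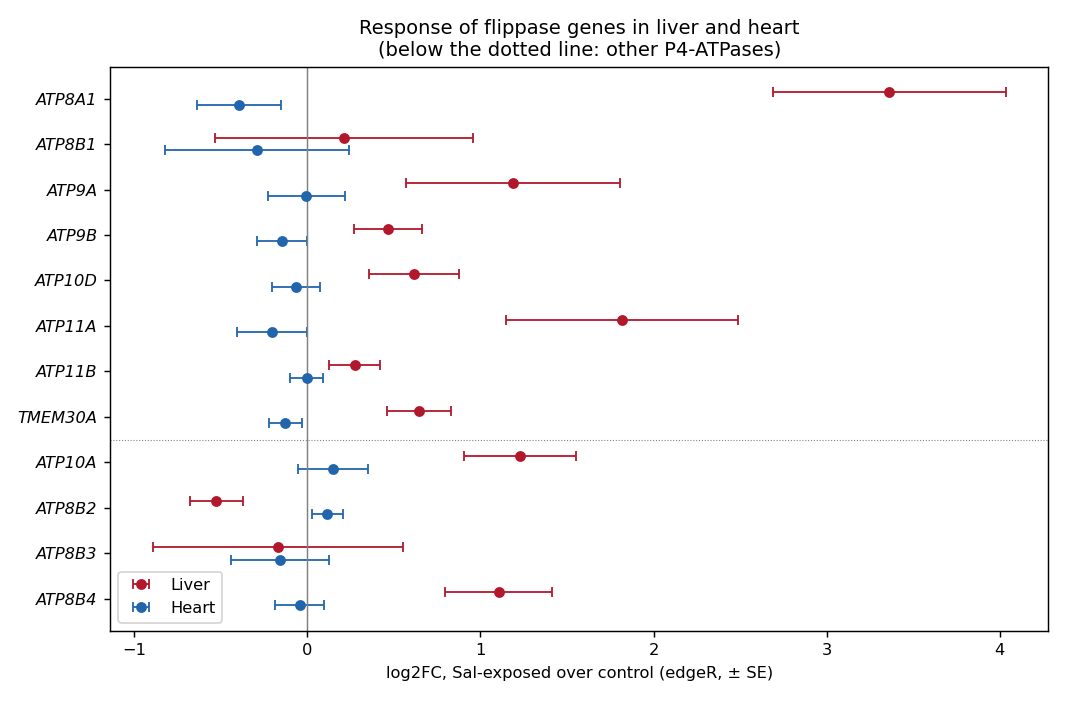
Log2FC of Sal-exposed over control birds in liver (red) and heart (blue) for the 8 flippase genes that passed the count filter and, below the dotted line, for 4 other P4-ATPase genes. Points are edgeR estimates and bars are ± 1 SE. Under TMM scaling all 8 red points of these genes lie right of 0, from 0.21 for *ATP8B1* to 3.36 for *ATP8A1*, and their blue points lie between -0.40 and 0.

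Set side by side, the liver response exceeded the heart response for each of the 8 genes, except for *ATP11B* when offsets on genomic span were used (-0.24). The fitted difference between the responses was 3.80 log2 units (SE 0.70) for *ATP8A1*, 2.08 (SE 0.58) for *ATP11A*, 0.83 (SE 0.21) for *TMEM30A* and 0.68 (SE 0.24) for *ATP9B*. For *ATP9A*, *ATP10D*, *ATP8B1* and *ATP11B* it was 1.25, 0.74, 0.55 and 0.34. The call rule was met by 2 of 8 (*ATP8A1* and *ATP11A*), where 10.6% of 14632 genes met it, and 4 of 8 passed the adjusted p alone, against 16.2%. These differences contain the liver contrast and are given without a test.

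In control birds, all 7 flippase genes in the fit had a log2FC below 0 for liver against heart under TMM scaling. By an adjusted p of 0.05 alone, 5 of the 7 were lower in control liver and none was higher, where 68.8% of 14121 genes passed and 35.9% were lower. With the fold rule 3 of the 7 were called, a share not above the 50.8% of all genes. *ATP8A1* is counted in the 5 and in the 3 as a description only, without a test. The tissues were homogenised in different ways, so tissue and protocol cannot be told apart. The fit treated livers and hearts as independent although they came from the same control birds, and its p-values do not allow for this.

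*ATP11A* showed the largest tissue difference, at 0 to 1.19 CPM in control livers and 15.2 to 23.3 CPM in control hearts (log2FC -4.85, SE 0.50, edgeR adjusted p = 1.05e-06). *ATP8A1* followed, at 0 to 1.02 CPM in control livers and 3.52 to 5.11 CPM in control hearts, a log2FC of -3.27 (SE 0.58) given as a description. *ATP10D* was at 4.90 to 10.7 CPM in control livers and 21.1 to 25.9 CPM in control hearts (log2FC -1.65, SE 0.18, edgeR adjusted p = 1.96e-06). In all 3 the highest liver lay well below the lowest heart. Of the 7 members, 5 had groups that did not overlap, *ATP8A1* among them, against 53.1% of all genes.

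*ATP11B* had a log2FC of -0.95 (SE 0.10, edgeR adjusted p = 1.72e-06) and *TMEM30A* of -0.32 (SE 0.13, edgeR adjusted p = 0.0416), both under the fold rule. The call of *TMEM30A* was lost in 9 of the 12 fits that left out 1 library, all except those without control heart 6, control liver 2 or control liver 3 (adjusted p up to 0.086), and without control livers 1 and 6 together (0.133). *ATP9A* (-1.28, SE 0.60) and *ATP9B* (-0.36, SE 0.17) had edgeR adjusted p-values of 0.0701 and 0.0727, and both passed without control liver 6 (0.000315 and 0.00541). They were also lower in liver past the adjusted p under other settings, *ATP9A* in 5 and *ATP9B* in 4. The sign of *ATP9B* and *ATP11B* depended on the scaling: with the trend on genomic span removed, the log2FC was 1.05 for *ATP9B* (edgeR adjusted p = 0.00131) and 0.13 for *ATP11B* (edgeR adjusted p = 0.431).

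**Figure D3:**
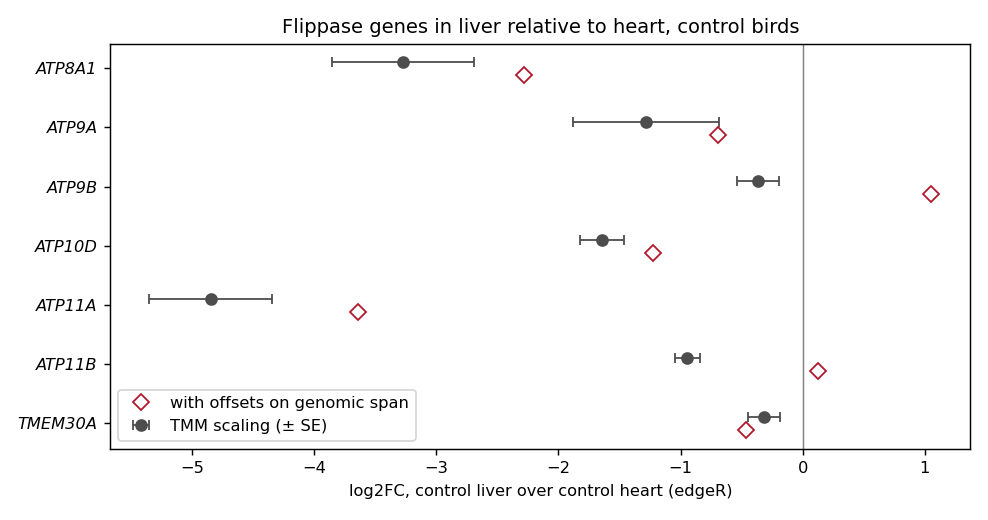
Log2FC of control liver over control heart for the 7 flippase genes that passed the count filter in this comparison. Filled points are TMM-scaled edgeR estimates with ± 1 SE, and open diamonds are the estimates with offsets on genomic span. *ATP11A* (-4.85) and *ATP8A1* (-3.27) lie farthest to the left, and for *ATP9B* and *ATP11B* the diamond lies right of 0.

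Ordered by group mean, *ATP8A1* stood at 4.79 CPM in Sal-exposed liver, 4.43 CPM in control heart, 3.38 CPM in Sal-exposed heart and 0.445 CPM in control liver. The first 3 groups overlapped in pairs, and only control liver overlapped no other group. Its highest library, at 1.02 CPM, nearly met the lowest Sal-exposed liver, at 1.11 CPM. *ATP11A* had another order, since its Sal-exposed livers, at 2.36 ± 1.02 CPM, still lay below every heart. *TMEM30A* was highest in Sal-exposed liver, at 72.3 ± 18.2 CPM, and its control liver mean of 44.5 ± 9.01 CPM was the lowest of the 4 groups (SD, n = 6 each).

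The genes whose levels followed *ATP8A1* most closely from bird to bird were looked for by the correlation of deviations from the 4 group means, over 24 libraries and 12565 genes. *ATP11A* came first, with r = 0.93 (0.949 over the 12 livers and 0.602 over the 12 hearts). It was followed by ENSGALG00010029328 (0.925), *ZBTB41* (0.922), ENSGALG00010004863 (0.922) and *DMXL1* (0.919). This likeness rested on control liver 1, where both *ATP8A1* and *ATP11A* had 0 counts: without it r was 0.728 for *ATP11A*, which then ranked 111 among 12564 genes. Points share library depth and scaling, and the values are a description.

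Of the other members, *TMEM30A* (r = 0.612) and *ATP9B* (0.551) came next over the 24 libraries, and *ATP10D* (0.173), *ATP11B* (0.039), *ATP8B1* (0.025) and *ATP9A* (-0.072) stood lower. Control liver 1 moved these values the other way from that of *ATP11A*. All of them were higher without it, that of *ATP9B* only slightly. Without control liver 1 r was 0.731 for *TMEM30A*, 0.655 for *ATP11B*, 0.558 for *ATP9B*, 0.54 for *ATP10D*, 0.243 for *ATP9A* and 0.11 for *ATP8B1*.

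**Figure D4:**
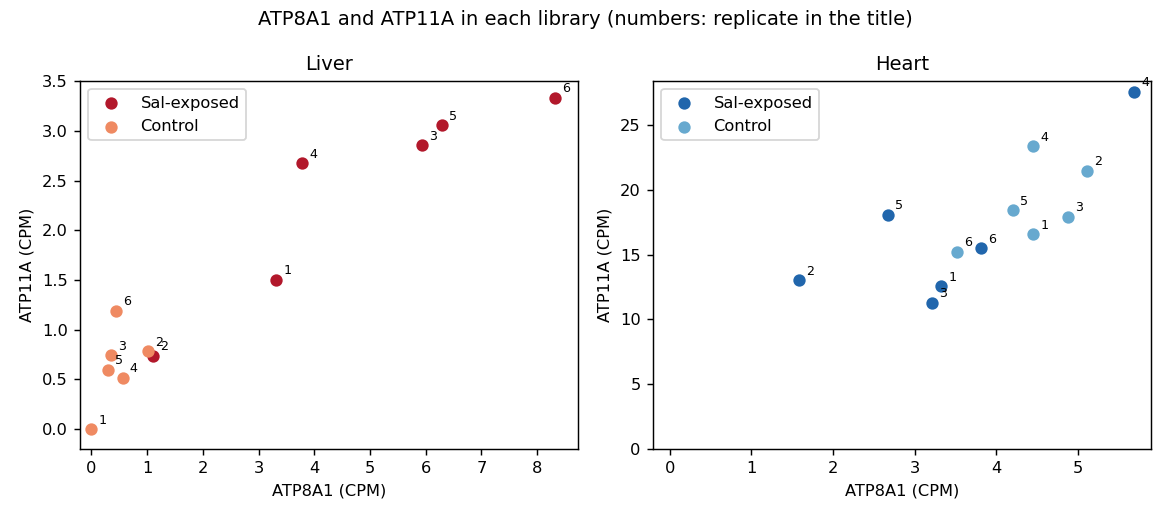
*ATP8A1* (horizontal axis) against *ATP11A* (vertical axis) in each library, in TMM-scaled CPM, for liver (left) and heart (right). Points are birds, numbered as in the titles. In liver, Sal-exposed bird 2 (1.11 and 0.737 CPM) lies beside control liver 2, and control liver 1 lies at 0 for both genes.

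On chromosome 4, the nearest tested genes on each side of *ATP8A1* had smaller differences in liver, but not all lay close to it. *COMMD8*, *GNPDA2* and *GUF1*, at -1327.5, -543.8 and -528.8 kb on the side of lower coordinates, had log2FC of 0.06, 0.19 and 0.24. On the other side, ENSGALG00010017253, *SLC30A9* and ENSGALG00010017255, at 80.4, 90.7 and 117.1 kb, had log2FC of -0.49, 0.51 and 0.25. ENSGALG00010017255 averaged only 0.375 CPM in Sal-exposed and 0.309 CPM in control livers. Of these 6 genes, *SLC30A9*, a zinc transporter 90.7 kb away, passed the test (SE 0.16, edgeR adjusted p = 0.0485), and it did so in 2 of the 12 fits that left out 1 liver, those without Sal-exposed liver 2 or control liver 5. *ATP10D* lies beyond *COMMD8* on the side of lower coordinates, from 66282327 to 66319390.

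Other genes of the flippase family, apart from the members above, were read from a list of 7 genes. Of these, 5 were in the table and 4 were tested. In liver 2 rose and 1 fell by adjusted p, where 7.57% of all genes rose and 7.84% fell, and the list median log2FC was 0.47 against -0.01 over all genes. This list and the lists below were chosen with earlier results of these data known. Their liver counts and p-values are therefore given as a description and are no independent evidence on the family.

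*ATP10A*, a phosphatidylcholine flippase in human cells, averaged 5.12 ± 1.64 CPM in Sal-exposed livers and 2.09 ± 0.740 CPM in control livers (SD, n = 6 each; log2FC 1.23, SE 0.32, edgeR adjusted p = 0.0227). *ATP8B4* averaged 19.2 ± 8.37 CPM in Sal-exposed livers and 8.64 ± 3.01 CPM in control livers (log2FC 1.10, SE 0.31, edgeR adjusted p = 0.0291). *ATP8B2* fell, with 32 ± 3.70 CPM in Sal-exposed livers and 44.5 ± 9.63 CPM in control livers (log2FC -0.53, SE 0.15, edgeR adjusted p = 0.0346). *ATP8B3* had a log2FC of -0.17 (SE 0.72, edgeR adjusted p = 0.896). *ATP10B* was not tested. It averaged 0.463 CPM in Sal-exposed livers (0.063 to 1.52 CPM, at most 69 counts in a library). In control livers it averaged 0.00538 CPM (0 to 0.0323 CPM, at most 1 count).

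The 3 calls were not kept in every fit that left out 1 liver. *ATP10A* was lost without Sal-exposed liver 6 (adjusted p = 0.0634). *ATP8B4* was lost without Sal-exposed liver 3, 4 or 6 or control liver 1 or 4 (adjusted p up to 0.0703). *ATP8B2* was lost without Sal-exposed liver 1, 3, 5 or 6 or control liver 3, 4 or 5 (adjusted p up to 0.0946). With offsets on genomic span the edgeR adjusted p was 0.0623 for *ATP10A*, 0.0624 for *ATP8B4* and 0.0609 for *ATP8B2*, and without control livers 1 and 6 it was 0.094 for *ATP8B4*. In heart 0 of the 4 passed the edgeR test, 0 had an unadjusted p under 0.05 and 0 passed by DESeq2, with edgeR adjusted p-values from 0.542 for *ATP8B2* to 0.906 for *ATP8B4*.

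Genes that move lipids in other directions were read in the same way, against the 7.57% of all genes that rose and the 7.84% that fell in liver. Among scramblases, which let lipids cross in both directions, 0 of 7 tested rose and 1 fell, *ATG9A*, an autophagy scramblase (log2FC -0.85, SE 0.23, edgeR adjusted p = 0.0258, lost without Sal-exposed liver 5 or 6 or control liver 4). Of 6 outward pumps and canalicular transporters 1 rose, *ABCA1*, which loads lipid onto apolipoproteins (log2FC 0.77, SE 0.16, edgeR adjusted p = 0.01, and 0.123 with offsets on genomic span). *ABCB11*, the bile salt export pump that works beside ATP8B1 in the canaliculus, had a log2FC of -0.18 (SE 0.33, edgeR adjusted p = 0.749).

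The last 3 lists hold genes for the supply, the trafficking and the reading of phosphatidylserine, with the same 7.57% and 7.84% of all genes as background. Of 6 genes of phosphatidylserine synthesis and transfer 0 passed the edgeR test in liver, 0 passed by DESeq2 and 3 had an unadjusted p under 0.05, with a median log2FC of 0.39. Of 9 tested partners in recycling endosomes and the Golgi 2 rose, *RAB11A*, a GTPase of recycling endosomes (log2FC 0.50, edgeR adjusted p = 0.0227), and *MON2*, a Golgi and endosome scaffold whose yeast form works with the *ATP9* relative Neo1 (log2FC 0.63, edgeR adjusted p = 0.0308). Both calls were lost when some single livers were left out, *RAB11A* without Sal-exposed liver 6 or control liver 5 and *MON2* without Sal-exposed liver 3, 5 or 6 or control liver 3, 4 or 5. With offsets on genomic span the edgeR adjusted p of *MON2* was 0.233. Of the 9 partners 7 had a positive log2FC, 0 fell by the edgeR adjusted p and 3 passed by DESeq2. *RAB11B*, a relative of *RAB11A*, had a negative log2FC (-0.60, SE 0.21, edgeR adjusted p = 0.067). Of 7 tested receptors and bridging proteins for phosphatidylserine 1 fell, *STAB1*, a scavenger receptor of sinusoidal endothelium (log2FC -0.97, edgeR adjusted p = 0.0123). In heart, 0 genes of these 5 lists passed by edgeR or DESeq2, and 0 to 2 of each list had an unadjusted p under 0.05.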

How the data were processed

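RNA-seq of chicken heart and liver gave 24 libraries in 4 groups of 6, grouped by title and tissue label, with both tissues taken from the same birds by the study's methods. Per the labels and the study's methods, the authors trimmed and checked reads with fastp and FastQC, mapped them to GRCg7b with STAR and estimated gene counts with RSEM (their versions were not stated). The deposited whole-number counts per gene were used as they stood, and gene positions in the deposited table gave the genomic spans. Columns with the authors' own log2 fold changes, standard errors, test statistics and p-values, and 12 count columns that match no sample here, were not used. Whether counting used strand was not stated.

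Genes were tested with edgeR 4.0.16 in R 4.3.3 (filterByExpr keeping genes by a count of 10 and a total of 15, TMM, quasi-likelihood F test, Benjamini-Hochberg over all genes tested), separately per comparison. Calls needed an adjusted p up to 0.05 and an absolute log2FC from 1 upwards. SE is the log2FC over the root of F. For single values a two-sided exact permutation test was run over all 924 splits, with 0.00216 as its smallest p. Scripts were tested on simulated data. Libraries of 1 group were far from identical (chi-square per degree of freedom of at least 13.1). Totals of 31371000 to 44528000 counts per library left *ATP8A2* and *ATP8B1* with few counts. Limits on 0 counts cover counting error only.

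Alternatives were DESeq2 1.42.0, upper-quartile scaling, no count filter, a replicate block, surrogate variables from sva 3.50.0, offsets on genomic span, 1 fit of all 24 libraries and leaving out each library. Named genes were all 9 members, list genes past the adjusted p (at most 4 a list) with *ABCB11*, the 5 genes most like *ATP8A1* and its 3 nearest tested genes on each side. *ATP8B3*, *ATP10B*, *RAB11B*, *PTPRC*, *CD74*, *CD3E*, *SNAP25*, *SYT1*, *ELAVL4*, *ALB*, *TNNC1*, *MYH7*, *RYR2*, *ACTC1*, *THBS1* and *PDGFRB* were named beside them after their values were seen. Some results are not reported here. The members and the lists were chosen with earlier results of these data known.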

Additional observations from a re-analysis of the deposited data

Results flagged for a closer look

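In 6 of 36 gene-by-group sets of 6 birds, 1 bird stood apart from the other 5 by Dixon's 95% criterion. Chance flags about 1 in 20 sets of normally distributed values. Some of these sets rest on 0 or few counts, so the number flagged cannot be compared with that rate. Sal-exposed liver 2 was low for *ATP9A* (2.09 CPM), control liver 6 was low for *ATP9A* (0 CPM) and high for *ATP9B* (11.7 CPM), and control liver 2 was high for *ATP8B1* (1.20 CPM). For the barely detected *ATP8A2*, control liver 1 (0.519 CPM) and Sal-exposed heart 1 (0.0536 CPM, 1 count) stood out.

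For 4 of the 8 genes the fitted difference between the liver and heart responses lay past an adjusted p of 0.05 in edgeR, which is given as a description. The difference in log2FC, liver minus heart, was 3.80 for *ATP8A1*, 2.08 for *ATP11A*, 0.83 for *TMEM30A* and 0.68 for *ATP9B*. *ATP9B* no longer passed in 18 of 24 fits that left out 1 library and under 5 of 8 other settings. These values contain the liver contrast on which *ATP8A1* was chosen, so they are no independent evidence.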

How the results depend on the processing

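In liver, the log2FC of *ATP8A1* was positive under every setting run, from 3.10 to 3.78 when single livers were left out. With 4 surrogate variables it was 1.72, and *ATP8A1* was not called. These fits reuse the values on which *ATP8A1* was chosen, so they are a description and no independent evidence. The number of members called in liver was 2 by DESeq2, 2 with all 24 libraries in 1 fit, 0 with surrogate variables (2 at an unadjusted p under 0.05) and 1 to 2 when single livers were left out. It was 2 without Sal-exposed liver 2, control liver 1 or control liver 6, and 3 without control livers 1 and 6 together, a setting chosen after seeing the data, as was leaving out Sal-exposed hearts 1 and 4. By adjusted p alone the liver number was 6 with all 24 libraries in 1 fit, 4 without control livers 1 and 6 and 0 with surrogate variables. At an unadjusted p under 0.05 (edgeR) the 24-library fit had 7 members and 5449 genes, and the main fit 5 and 4279. Without control livers 1 and 6 there were 5 members and 4300 genes. In the tissue comparison 5 members were called with upper-quartile scaling and 3 to 4 with single libraries left out, and in the difference between responses 1 was called with offsets on genomic span. All genes called in liver numbered 1464 in the fit of 24 libraries, 1342 by DESeq2 and 504 to 1296 with single livers left out (main value 952). With surrogate variables they numbered 0, where 2497 had an unadjusted p under 0.05. In the tissue comparison they numbered 7113 to 7490 with single libraries left out. In heart they numbered 176 by DESeq2, 109 with surrogate variables and 35 in the fit of 24 libraries (main value 15). Totals of all genes are not given for every setting, so member counts are not compared between settings.

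Directions turned for genes close to 0. In liver *ATP8B1* was -0.28 with surrogate variables and -0.14 without control livers 1 and 6. With single livers left out it ran from -0.001 (without Sal-exposed liver 3) to 1.42 (without control liver 2). *ATP11B* in liver was -0.079 with span offsets. With single livers left out *ATP8B3* ran from -0.63 to 0.11 (without control liver 3) and *ABCB11* from -0.57 to 0.0199 (without control liver 6), and *ABCB11* was 0.0251 without control livers 1 and 6. In heart, *ATP9A* was 0.0057 by DESeq2, 0.0599 with surrogate variables, 0.0408 with span offsets and up to 0.13 with single hearts left out. *ATP11B* in heart was 0.0104 by DESeq2, 0.011 with surrogate variables, 0.0806 with span offsets, 0.0063 without Sal-exposed hearts 1 and 4 and from -0.0498 to 0.0278 with single hearts left out. *ATP10D* in heart was 0.017 with surrogate variables, 0.009 without Sal-exposed hearts 1 and 4 and 0.0128 without Sal-exposed heart 2. In the tissue comparison *ATP9B* was 1.05 and *ATP11B* 0.13 with span offsets, and the liver minus heart difference of *ATP11B* was -0.24. The cause was not tested. Surrogate variables moved the median of all genes in the tissue comparison to -0.21 (main value -0.06), and span offsets moved that of the liver minus heart difference to -0.10 (main value 0.09).

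Same-numbered Sal-exposed and control libraries deviated together little (r from -0.166 to 0.097), and 1 of 12 libraries in liver and 1 of 12 in heart correlated best with its own number, so between treatments the numbers share no more than a label. Same-numbered livers and hearts had r from -0.093 to 0.587 in Sal-exposed birds and from -0.042 to 0.213 in control birds. By the study's methods hearts and livers came from the same birds of a treatment group, but the labels do not say whether the numbers match. The fits across tissues treat them as separate. With a replicate block the log2FC of *ATP8A1* in liver was 3.63, 1 member was called in liver, 0 in heart, 3 in the tissue comparison and 2 in the difference between responses, and all genes called numbered 563 in liver and 0 in heart (1889 in heart at an unadjusted p under 0.05). The block also ended the liver calls of *TMEM30A* (adjusted p = 0.0845), *ATP8B2*, *ATP8B4*, *ATP10A*, *RAB11A*, *MON2*, *SLC30A9* and *PTPRC* and, in the tissue comparison, which it pairs by number, that of *TMEM30A* (0.0676).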
